A study of Arabidopsis thaliana with 6 samples.

Results

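GRX480, SAG101, AT1G57630, AT5G52760 and AT5G55450 are 5 genes grouped here under salicylate signalling and defence. They were read out in rosette leaves of the Arabidopsis thaliana pho1 mutant and its wild type. They are 5 of the 13286 loci that have a probe set (several short probes whose brightness is summarised in 1 signal) naming them alone, and each has 1 such probe set. They were chosen by the measured difference between pho1 and wild type on these same arrays, so their differences are given as a description, with no test. The role in salicylate signalling or defence is known for GRX480 and SAG101. The annotation gives the other three only as loci, and they are placed here by the domains of their proteins.

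The study hybridised total RNA from rosette leaves to ATH1 arrays, 1 sample per array, with 3 arrays of wild type Col-2 and 3 arrays of pho1, an EMS mutant with Col-2 as its background. All plants were at developmental stage 3.90 and grew on medium of MS salts, 1% sucrose and 0.8% agar, under a 16 h photoperiod at 24 °C and 80% humidity, with no treatment named. Each group is a single line, and a line made by EMS can carry further mutations. No probe set is named for PHO1, so the mutated gene was not analysed here. The labels do not say whether replicates came from separate plants, so the spread behind every p-value is that between these samples and may be technical.

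PHO1 exports phosphate into the root xylem, and leaves of pho1 plants are short of phosphate. Salicylate is a hormone of defence against pathogens that feed on living tissue. When it accumulates, the coactivator NPR1 works with TGA transcription factors to switch on defence genes. GRX480 is a CC-type glutaredoxin, a small redox protein of a plant-specific class that binds TGA factors, and salicylate induces its gene. It can hold back genes of the jasmonate and ethylene defence branch such as PDF1.2. SAG101, first described as a senescence gene, is a partner of EDS1, the lipase-like protein that relays signals from immune receptors with a TIR domain. AT1G57630 encodes a TIR-domain protein, AT5G52760 a small protein with a heavy-metal-associated domain, and AT5G55450 a protein of the lipid transfer family.

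The arrays have trimmed means of 100.01 and median signals between 41.4 and 46.6, and no detection calls were used. Both replicate 1 arrays stood apart. For the spiked bacterial transcripts thr, phe, lys and dap, read by 24 control probe sets, their median signals were 3.75 in wild type and 2.1 in pho1, against 43.8 to 88.2 on the other 4 arrays. Results are therefore also given for replicates 2 and 3 alone. Signals of the mesophyll gene RCA, which encodes Rubisco activase and was used to check the labelled leaf tissue, lay between 3025 and 5097 on all 6 arrays.

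All 5 genes had higher signals in pho1 than in wild type, and in none did the groups overlap. Over all tested probe sets, 10.8% had all pho1 signals above all wild-type signals. Log2 differences, taken on log2(signal + 10), were 2.29 ± 0.42 for GRX480 and 0.67 ± 0.21 for SAG101. They were 3.43 ± 0.31 for AT1G57630, 3.42 ± 0.39 for AT5G52760 and 3.42 ± 0.65 for AT5G55450 (SE, n = 3 arrays per group). The median of the 5 was 3.42, beside -0.021 over all 15922 probe sets tested. All 5 passed the filter on dim probe sets, and the limma fit over the whole table called 4 of them, all but SAG101, where it called 2.96% of probe sets in either direction. Since this contrast chose the genes, that count is no evidence about them. In bulk leaf tissue, more cells using a gene and more RNA per cell cannot be told apart.

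**Figure D1:**
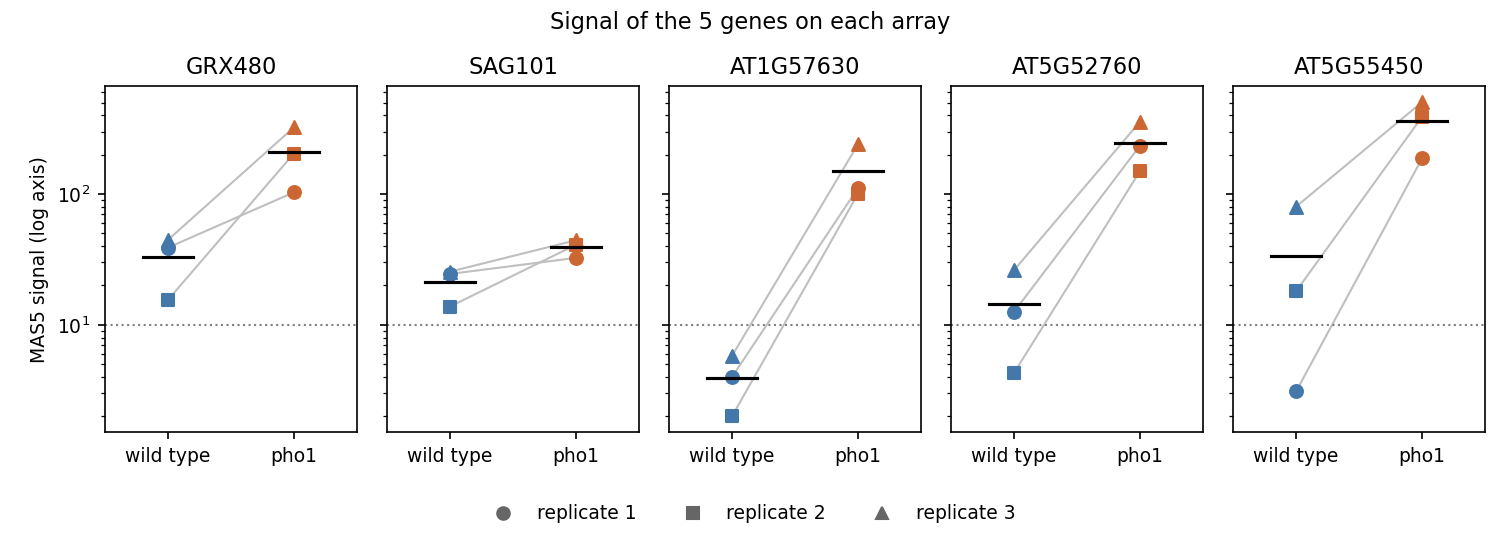
Signal of each gene on the 6 arrays, on a log axis, with circles, squares and triangles for replicates 1, 2 and 3, grey lines joining arrays of the same number and black bars for group means. The dotted line marks the offset of 10. In every panel the 3 pho1 arrays lie above the 3 wild-type arrays, and the triangle of replicate 3 is the highest point of each group.

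GRX480 (AT1G28480, probe set 261443_at) had signals of 38.9, 15.5 and 44.6 in wild-type replicates 1, 2 and 3, and of 103, 204 and 323 in pho1. Wild-type replicate 2 was the lowest array, and pho1 replicate 1 the lowest of its group. The means were 33.0 ± 15.4 and 209.7 ± 110.2 (SD, n = 3), a ratio of 6.35. The lowest pho1 signal was 2.3 times the highest wild-type signal, which is a narrow gap beside a range of 3.14 times within pho1 itself.

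SAG101 (AT5G14930, probe set 246600_at) differed least. Its signals were 24.5, 13.8 and 25.5 in wild type and 32.5, 40.9 and 44.3 in pho1. All 6 values were dim, and the lowest pho1 array exceeded the highest wild-type array by a ratio of 1.27. The ratio of the means, 21.3 ± 6.49 and 39.2 ± 6.07 (SD, n = 3), was 1.84. Among tested probe sets its log2 difference ranked 1058 from the top, whereas GRX480 ranked 131 and the other three ranked 38, 39 and 40.

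AT1G57630 (probe set 246405_at) was near the bottom of the signal range in wild type, at 4.0, 2.0 and 5.8. In pho1 it reached 111, 100.3 and 239.6. All 3 wild-type arrays lay under the offset, so the log2 difference understates the change. The groups lay far apart, but the size of any fold over wild-type signals this dim is uncertain.

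AT5G52760 (probe set 248322_at) had signals of 12.6, 4.3 and 26.2 in wild type and 234, 149.7 and 357 in pho1. Replicate 2 was low and replicate 3 high in both groups, so the arrays kept one order in wild type and in the mutant. The means were 14.4 ± 11.1 and 247 ± 104 (SD, n = 3), a ratio of 17.2. Wild-type replicate 2 lay under the offset and the wild-type mean was dim, so the size of this ratio is uncertain.

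AT5G55450 (probe set 248062_at) was the most variable in wild type, with signals of 3.1, 18.1 and 80.1, and had 187, 389 and 504 in pho1. The lowest wild-type signal lay under the offset, so its size is uncertain. Its wild-type coefficient of variation was 121%, while those of the other 4 genes lay between 30.5% and 77.0%. The gap between the lowest pho1 and highest wild-type signal was a ratio of 2.34.

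Within replicate numbers, which share a pattern across the table, the genes fell into different orders. In pair 1 GRX480 differed by 1.2 and SAG101 by 0.30, less than the 3.07 and 1.1 of pair 2 and the 2.61 and 0.61 of pair 3. AT1G57630 also had its smallest difference in pair 1, by a narrow margin, while AT5G52760 and AT5G55450 did not. AT1G57630 differed by 3.11, 3.20 and 3.98 in pairs 1, 2 and 3, AT5G52760 by 3.43, 3.48 and 3.34, and AT5G55450 by 3.91, 3.83 and 2.51. AT5G52760 was thus the steadiest of the 5 across pairs on this scale, where the offset narrows differences at dim wild-type signals. Without the offset its signal ratios varied more, at 18.6, 34.8 and 13.6 in pairs 1, 2 and 3. Those of AT1G57630 were 27.7, 50.2 and 41.3, and those of AT5G55450 were 60.4, 21.5 and 6.29. All of these genes had wild-type signal under the offset on at least 1 array, so the sizes of these ratios are uncertain. AT5G55450 had its smallest difference in pair 3, where its wild-type signal was highest. Whether pair 1 differs from the others was not tested, since it holds 1 array per group. In replicates 2 and 3 alone the log2 differences were 2.84 for GRX480, 0.85 for SAG101, 3.59 for AT1G57630, 3.41 for AT5G52760 and 3.17 for AT5G55450.

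**Figure D2:**
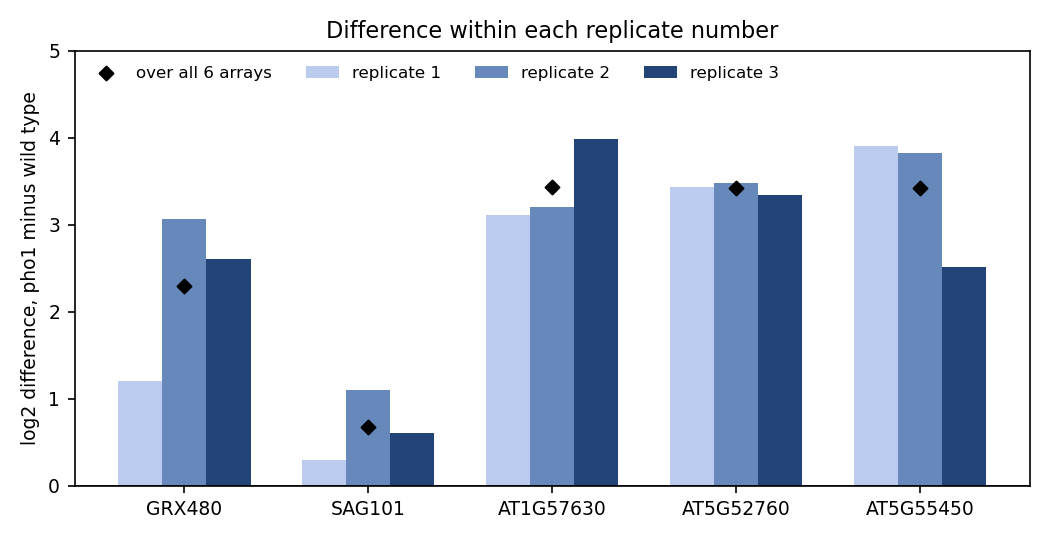
Log2 difference of pho1 minus wild type within replicates 1, 2 and 3 (bars) and over all 6 arrays (black diamonds), for each gene. The bars of replicate 1 are the lowest for GRX480, at 1.2, and SAG101, at 0.30, but not for AT5G52760 and AT5G55450.

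The genes were chosen by the difference between groups. The order of arrays within a group comes from the same 6 arrays, so it may be linked to that choice. In all 5 genes replicate 3 had the highest signal in wild type and also in pho1. This held for 14.8% of all tested probe sets, and for 171 of the 413 other probe sets called higher in pho1, or 41.4%. The order is therefore common among genes higher in pho1 and not shown to be particular to these 5. Correlations over the 6 arrays between the 10 pairs of genes lay between 0.84 and 0.98. All pairs share the same arrays and the group difference that chose them. With group means removed they lay between 0.37, for SAG101 with AT5G55450, and 0.91, for GRX480 with SAG101.

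Other CC-type glutaredoxin genes also moved. Of 20 listed besides GRX480, 16 had a named probe set and 10 were tested. 3 rose and none fell past the threshold (limma, adjusted p under 0.05), beside 2.62% of all tested probe sets called higher and 0.345% called lower. The median of the 10 was 0.34. AT2G30540 had signals of 39.2, 41.5 and 49.8 in wild type and 296, 334 and 441 in pho1. The groups lay far apart, and the gene rose by 2.76 ± 0.19 (SE; limma adjusted p = 3.3e-04). AT1G03020 rose by 1.65 from 28.2 ± 4.76 to 109.6 ± 12.5 (limma adjusted p = 0.0020), and AT4G15680 by 2.03 from 17.8 ± 15.5 to 96.4 ± 27.0 (limma adjusted p = 0.028). AT4G15680 lost its call without replicate 2 or 3 of either group (adjusted p from 0.063 to 0.13) and with no filter (0.071). Its chromosomal neighbours belong to the same family, among them AT4G15690, named after its values were seen. It differed by 1.38 (limma adjusted p = 0.34; 0.032 when blocked by replicate; 0.0020 in replicates 2 and 3 alone). AT5G18600, also named after its values were seen, had differences of -0.71, -0.63 and -0.30 in pairs 1, 2 and 3 and did not pass (limma adjusted p = 0.59). Among 6 untested dim probe sets, 2 had all pho1 signals above wild type, as did 6.77% of all probe sets too dim to be tested. With the replicate block 4 of the 10 rose, and 5 did in replicates 2 and 3 alone, where the fits called 6.64% and 18.7% of all tested probe sets in either direction.

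The TIR-domain list, to which AT1G57630 belongs, had 18 of 23 other loci with a named probe set. Of its 19 probe sets 9 were tested, and 2 rose and none fell (limma, adjusted p under 0.05), with a median of 0.77. Over all tested probe sets, 2.62% were called higher and 0.345% lower. Of the 9, 5 had pho1 signals wholly above wild type and 1 wholly below. The latter was AT4G23440, named after its values were seen, which differed by -0.41 (limma adjusted p = 0.31). Among the 10 untested, 3 lay wholly above and 0 wholly below. With the replicate block 4 of the 9 rose, and 4 did in replicates 2 and 3 alone. The fits called 6.64% and 18.7% of all tested probe sets in either direction. The sets of 4 differ, since in replicates 2 and 3 alone AT1G72940 did not pass (limma adjusted p = 0.051). AT1G66090, named after its values were seen, passed there (0.0085, against 0.14 over all arrays). AT1G72890 had signals of 46.1, 32.8 and 39.7 in wild type and 279, 384 and 453 in pho1. Every pho1 array lay well above wild type, and the gene rose by 2.93 ± 0.21 (SE; limma adjusted p = 3.8e-04). AT1G72900 rose by 2.14 from 66.6 ± 28.4 to 318 ± 76.4 (limma adjusted p = 0.0076). Both calls held under all 16 alternatives. These genes stand in a run of TIR-domain genes on chromosome 1, which was singled out after its values were seen. All 5 list genes of the run with a named probe set had pho1 signals wholly above wild type. This held for 10.8% of all tested probe sets and 6.77% of those too dim to be tested. AT1G72920 differed by 0.94 (limma adjusted p = 0.083; 0.028 when blocked by replicate) and AT1G72940 by 0.77 (limma adjusted p = 0.066; 0.032 when blocked by replicate). AT1G72950 was too dim to be tested, at 3.20 ± 0.520 in wild type and 14.2 ± 3.40 in pho1 (SD, n = 3). AT1G72870 and AT1G72960, at the ends of the run and not in the list, overlapped between groups, with differences of -0.08 and -0.05. AT1G57630 stands elsewhere on the chromosome. Of its nearest neighbours, AT1G57620 differed by -0.01 (limma adjusted p = 0.98), and AT1G57650 had signals of 0.9 to 3.1 on all arrays.

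**Figure D3:**
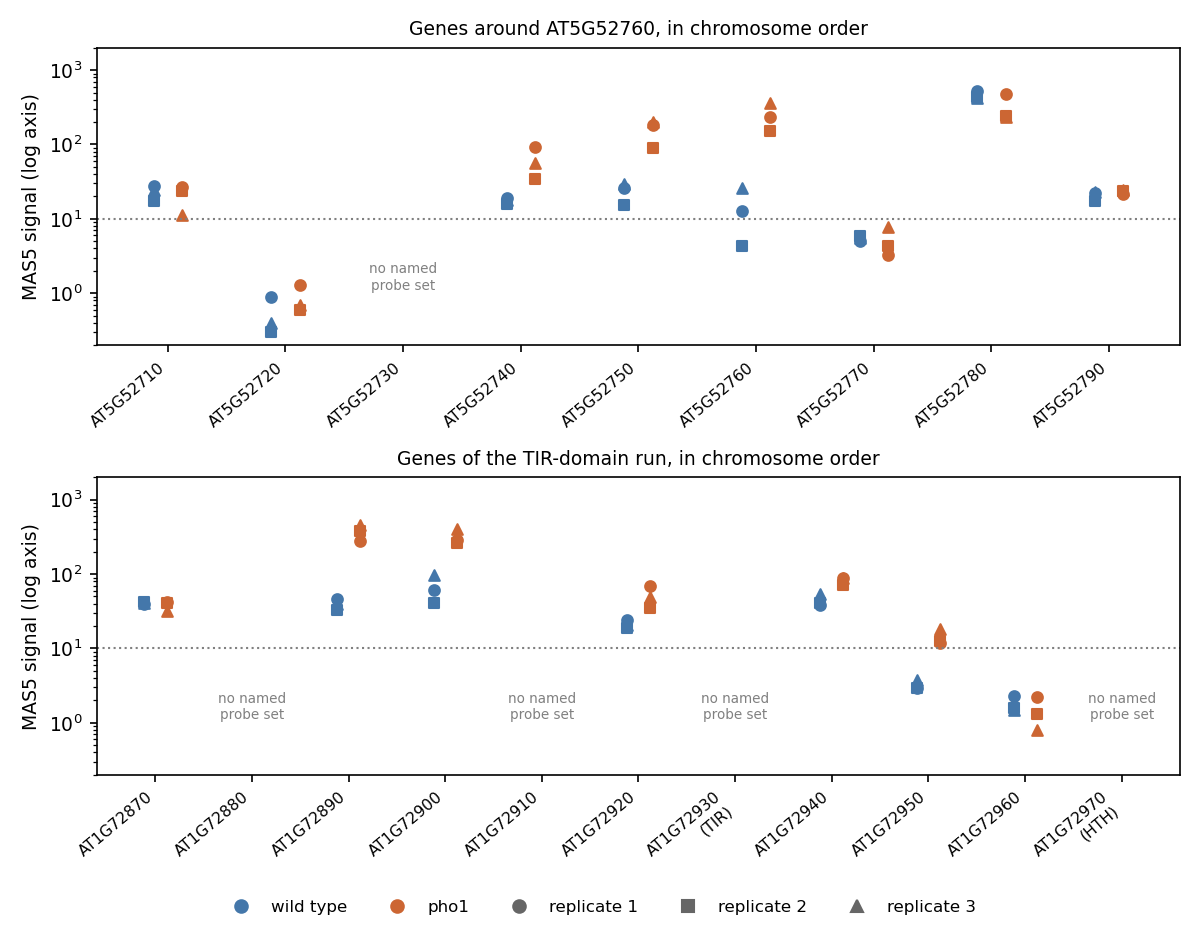
Signals on the 6 arrays (log axis, blue for wild type, orange for pho1, shapes for replicates 1 to 3) of genes in chromosome order around AT5G52760 (upper panel) and in the TIR-domain run (lower panel). In the upper panel the groups part at AT5G52740, AT5G52750 and AT5G52760, and overlap at the other genes with a named probe set. In the lower panel they part at the 5 genes AT1G72890, AT1G72900, AT1G72920, AT1G72940 and AT1G72950.

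AT5G52760 lies beside relatives that encode proteins with the same domain. Its direct neighbour AT5G52750 had signals of 26, 15.5 and 29.0 in wild type and 181, 88.8 and 199 in pho1. It had the same low replicate 2 as AT5G52760 in both groups, and it rose by 2.26 ± 0.31 (SE; limma adjusted p = 0.0076), a call held under all 16 alternatives. The next gene, AT5G52740, had 17.7 ± 1.59 in wild type and 61.2 ± 29.3 in pho1 and did not overlap. It differed by 1.28 (limma adjusted p = 0.060; 0.020 when blocked by replicate). On the other side, AT5G52770 stayed dim at 3.3 to 7.8 on all arrays, with a difference of -0.05. Relatives this close can share probes, and the probe sequences were not used here, so the 3 signals may not be independent. Sharing of probes was likewise not checked within the TIR-domain run or among the neighbouring glutaredoxin genes. Of the 13 other tested probe sets of the heavy-metal-associated list, 1 rose, AT5G52750, beside 2.62% called higher over all tested probe sets. None fell (limma, adjusted p under 0.05), beside 0.345% called lower, and the median of the 13 was -0.09. Leaving out the run, 11 remain, with a median of -0.20 and 8 below 0. Of these limma called 0, and 2 had an unadjusted p under 0.05, both lower in pho1. Of the list's 7 untested dim probe sets, 2 had all pho1 signals above wild type and 0 had all below. These 2, AT3G07600 and AT4G05030, lie outside the run and were named after their values were seen. With no filter AT3G07600 passed (limma adjusted p = 0.049) and AT4G05030 did not (0.27). Among all probe sets too dim to be tested, 6.77% lay wholly above wild type. With the replicate block 0 of the 11 rose and 1 fell, AT1G51090, which was named after its values were seen and differed by -0.89, -1.34 and -0.77 in pairs 1, 2 and 3 (limma adjusted p = 0.37; 0.018 when blocked by replicate). In replicates 2 and 3 alone 0 rose and 3 fell, AT1G51090, AT5G19090 and 1 of the probe sets of AT5G50740, whose other probe set did not pass. The blocked fit called 6.64% of all tested probe sets in either direction, and that of replicates 2 and 3 alone 18.7%.

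The lipid transfer list had 9 tested probe sets besides AT5G55450, of which 2 rose and 1 fell (limma, adjusted p under 0.05), with a median of -0.02. Over all tested probe sets, 2.62% were called higher and 0.345% lower. With the replicate block, and in replicates 2 and 3 alone, 3 of the 9 rose and 1 fell. Those fits called 6.64% and 18.7% of all tested probe sets in either direction. AT4G12490 had signals of 109, 28.3 and 106 in wild type and 526, 307 and 431 in pho1. It belongs with AT4G12500 to a cluster of proline-rich lipid transfer genes that also holds AZI1, a gene of systemic immunity. Wild-type replicate 2 was far below the other wild-type arrays, and the gene rose by 2.38 ± 0.43 (SE; limma adjusted p = 0.028). The call ended without pho1 replicate 2 (adjusted p = 0.076), without pho1 replicate 3 (0.13) and with no filter (0.066). AT4G12500 rose by 1.38 from 17.3 ± 6.04 to 59.8 ± 1.75 (limma adjusted p = 0.011, and 0.068 and 0.063 without pho1 replicates 2 and 3). AT1G48750 fell by 0.91 from 251 ± 28.6 to 130 ± 24.8 (limma adjusted p = 0.043), a call that ended without any single array (0.052 to 0.19) and with no filter (0.063). AT5G48490, a relative of the systemic signalling gene DIR1, was named after its values were seen. It differed by 1.08, 0.99 and 0.91 in pairs 1, 2 and 3, and did not pass over all arrays unblocked (limma adjusted p = 0.37; 0.0085 when blocked by replicate). None of the nearest 2 genes on either side of AT5G55450 had a named probe set.

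**Figure D4:**
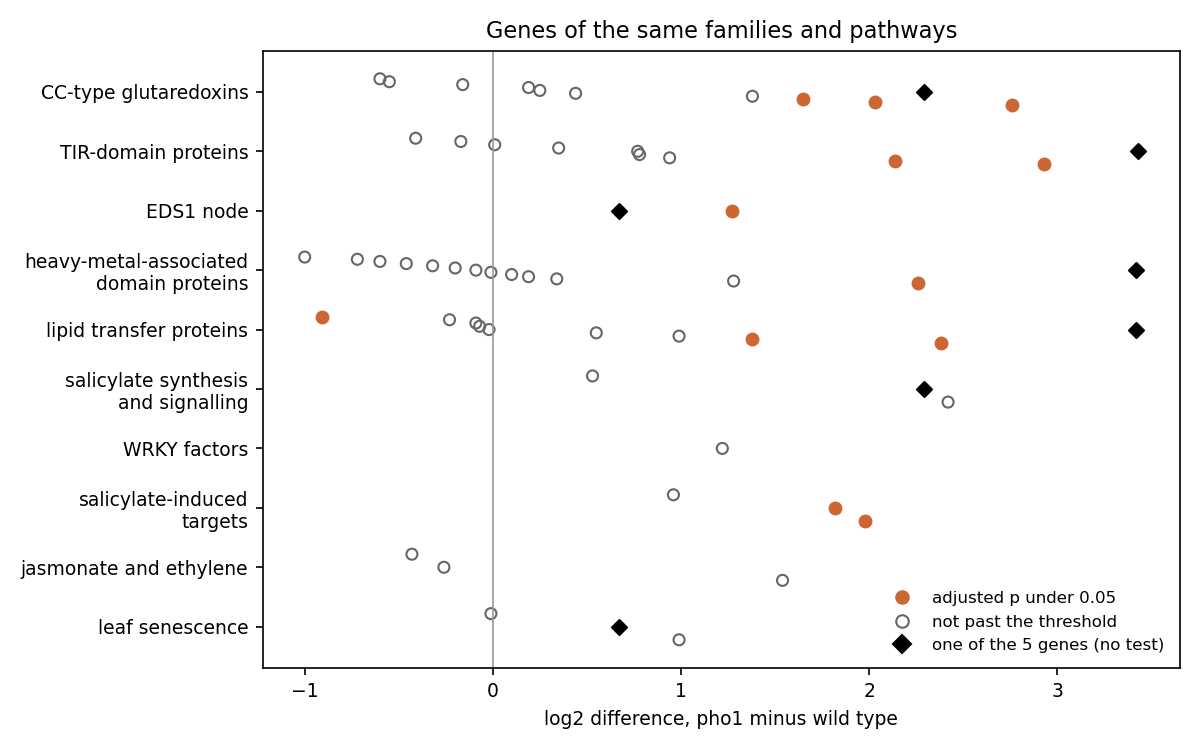
Log2 differences of pho1 minus wild type for the tested probe sets of 10 gene lists, with filled circles for adjusted p under 0.05, open circles for the rest and black diamonds for the 5 genes described here, which carry no test. Filled circles lie above 0 in 6 lists, and the one below 0 is AT1G48750 of the lipid transfer list.

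In the EDS1 node, the only other gene with a named probe set was AT3G48080, a close copy of EDS1 that stands next to it. Its signals were 8.2, 10.6 and 12.1 in wild type and 28.5, 40.4 and 50.4 in pho1. The groups did not overlap, and it rose by 1.27 ± 0.21 (SE; limma adjusted p = 0.020). The call ended without replicate 2 or 3 of either group (adjusted p from 0.051 to 0.11). EDS1 is a near-identical sequence, and how much of its transcript this probe set reads was not tested. Next to SAG101 itself, AT5G14940 differed by 0.06 (limma adjusted p = 0.94). AT5G14910, the nearest gene with a named probe set on the other side, differed by -0.49 (limma adjusted p = 0.33, and 0.017 in replicates 2 and 3 alone).

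Of 30 other genes of salicylate synthesis and signalling, 4 had a named probe set and 2 were tested, so the list is mostly unseen. Neither passed (limma, adjusted p under 0.05), while 1, BSMT1, had an unadjusted p under 0.05. BSMT1, which methylates salicylate to a volatile ester, had signals of 5.9, 5.7 and 17.9 in wild type and 4.5, 254 and 267 in pho1. The mutant arrays of replicates 2 and 3 were high and that of replicate 1 was at the wild-type level. It differed by 2.42 ± 1.01 (SE; limma adjusted p = 0.31), and passed without pho1 replicate 1 (6.7e-04) and in replicates 2 and 3 alone (3.2e-04). AT5G52810 (SARD4), an enzyme of pipecolate synthesis, differed by 0.53 (limma adjusted p = 0.37). UGT76B1, which puts glucose on salicylate, was too dim to be tested, with signals of 5.7, 1.4 and 3.0 in wild type and 6.6, 18.0 and 66.0 in pho1. These do not overlap, but pho1 replicate 1 lay close to wild type. The other untested gene of the list, UGT74F1, had 1.5, 2.9 and 3.8 in wild type and 3.7, 3.3 and 4.5 in pho1. Its groups overlapped, with a difference of 0.12. No TGA factor had a named probe set, and the single named gene of TGA-dependent detoxification, GSTU25, was too dim to be tested.

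Of 22 listed salicylate-induced targets, 3 had a named probe set, so most were unseen. All 3 were tested and 2 rose (limma, adjusted p under 0.05), beside 2.62% of all tested probe sets called higher. AT5G03350 (LLP1), a lectin-like protein, was bright in both groups, with 657, 586 and 771 in wild type and 2830.1, 2066 and 2307 in pho1. It rose by 1.82 ± 0.21 (SE; limma adjusted p = 0.0036), held under all 16 alternatives, and pho1 replicate 1 was its highest array. AT4G39670, of the glycolipid transfer family, rose by 1.98 from 5.33 ± 3.55 to 54.5 ± 29.1 (limma adjusted p = 0.029). It lost its call without replicate 2 or 3 of either group (adjusted p from 0.055 to 0.14) and with no filter (0.071). The remaining tested target, the chitinase-like AT2G43590, differed by 0.96 (limma adjusted p = 0.18). WRKY53, a regulator of senescence and defence and the only named gene of 13 WRKY factors, differed by 0.25, 1.51 and 1.89 in pairs 1, 2 and 3 (limma adjusted p = 0.14, and 0.0084 in replicates 2 and 3 alone).

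Of 28 listed genes of the jasmonate and ethylene branch, which GRX480 can hold back, 3 had a named probe set, so most were unseen. All 3 were tested with no call (limma, adjusted p under 0.05), while 1, THI2.1, had an unadjusted p under 0.05. PDF1.2 had signals of 21.3, 48.4 and 103 in wild type and 12.1, 52.9 and 50.2 in pho1, and PDF1.2b had 41.5, 109.6 and 384 and 44.3, 177 and 129.6. The groups overlapped in both defensins, with differences of -0.43 and -0.26. THI2.1, a thionin induced by jasmonate, had 30.7, 15.3 and 48.1 in wild type and 29.6, 179 and 187 in pho1. As with BSMT1, pho1 replicate 1 was at the wild-type level, and the gene passed without it (limma adjusted p = 0.0093, against 0.27 over all arrays). Of 17 other genes of the senescence list, which names SAG101, 3 had a named probe set. Of these 2 were tested, with 0 called by limma and 0 at an unadjusted p under 0.05. WRKY6 differed by 0.99 (limma adjusted p = 0.37; 0.034 when blocked by replicate), and WRKY22 by -0.01.

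The probe sets most like each gene over the 6 arrays were found by Pearson correlation of log2 values among 8845 tested probe sets with 1 gene. With 6 arrays and a shared group difference high values are common, as between 74 and 176 probe sets reached 0.95 for each of the 5 genes. For GRX480 they were AT5G67340 (r = 0.998), AT4G39670 (0.994) and TET8 (0.994), a tetraspanin. TET8 had signals of 357, 219 and 326 in wild type and 526, 762 and 1137 in pho1, with the same low wild-type replicate 2 and small difference in pair 1 as GRX480. For SAG101 they were AT5G05600 (0.998), JRG21 (0.990) and AT1G32190 (0.988). AT5G05600 and JRG21 both encode oxidases that inactivate jasmonate. JRG21 had signals of 47.5, 2.4 and 42.4 in wild type and 163, 507 and 483 in pho1, so its pattern resembles SAG101 at a larger difference.

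For AT1G57630 the most similar were AT1G28600 (0.997), a GDSL-type esterase, AT1G30250 (0.996) and AT3G01830 (0.995), a calmodulin-like protein. AT3G01830 had signals of 5.3, 0.2 and 4.2 in wild type and 46.3, 43.5 and 82.5 in pho1, low in wild type as AT1G57630 was. For AT5G52760 they were AT3G47480 (0.996), an EF-hand calcium-binding protein, AT1G72900 (0.996) of the TIR-domain run described above, and AT5G18470 (0.995), a lectin-like protein. AT3G47480 had signals of 23.6, 16.2 and 43.5 in wild type and 240.1, 205 and 463 in pho1. Both groups had replicate 2 low and replicate 3 high, the order seen in AT5G52760. For AT5G55450 they were scpl29 (0.993), AT3G09010 (0.990) and AME3 (0.988). These genes differed little between groups, by 0.31, 0.77 and 0.38, so a high correlation here does not mean a difference of similar size.

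Markers of other cell types were few. Of 6 root genes 2 had a named probe set, and their summed signals were 186 to 417 in wild type and 305 to 576 in pho1. PYK10, a beta-glucosidase of endoplasmic reticulum bodies, differed by 0.80 (limma adjusted p = 0.35), and EXPA7 lay between 4.4 and 31.3. Of 5 guard cell genes 3 were named, with sums of 62.9 to 76.5 in wild type and 71.2 to 106 in pho1. For TRY, the only named one of 5 trichome genes, signals were 26.5 to 38.4 and 12 to 25.7. Of 5 tested mesophyll genes, the median difference was 0.03. In these 4 lists 0 tested genes passed in limma and 0 had an unadjusted p under 0.05. With array weights 1 gene of each list passed, and in replicates 2 and 3 alone the mesophyll gene SBPASE did (limma adjusted p = 0.019). Those fits called 3789 and 2984 of all 15922 tested probe sets, so such calls are common there. The part of cell composition in the differences of the 5 genes was not tested. Among all tested probe sets, 9.03% had all pho1 signals below all wild-type signals, as TRY did.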

How the data were processed

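The authors deposited a linear intensity for each of 22810 probe sets, 64 of them controls. The submitters' processing notes name MAS5, with no version given in the sources used here. Each array was set to a common trimmed mean (lowest and highest 2% left out), and log2(signal + 10) was taken, the offset being 10% of that mean. After controls were removed, 15922 probe sets whose mean log2 value reached the 30th percentile (a signal of 17.4) were tested with limma 3.58.1 in R 4.3.3 (lmFit, eBayes with an intensity trend, two-sided, Benjamini-Hochberg over all tested). The procedure was tested on simulated data. Plots used matplotlib 3.10.9. The number of arrays limits the precision.

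Of 22746 probe sets other than controls, 13513 had 1 gene in the platform annotation, 503 had several and 8730 had none listed; 13436 matched a locus of the RefSeq table (TAIR10.1). The 16 lists hold 285 loci, of which 94 had a named probe set. Named by rule were the 5 genes and, per list, up to 4 called or the 2 smallest-p genes. So were the 3 most alike probe sets per gene and neighbouring genes. Some exceptions are stated where they occur. UGT76B1, UGT74F1, GSTU25, AT2G43590, PDF1.2b, EXPA7, AT5G19090, AT5G50740 and RCA were also named outside this rule. The genes and lists were chosen with earlier results of these data known. Deviations of same-numbered arrays from their group means correlated at 0.42, 0.217 and 0.386, so the numbers were taken to pair the arrays, from the data and not the labels; pho1 replicate 2 also correlated at 0.33 with wild-type replicate 3. The alternatives were offsets, scalings, filters, array weights, the replicate block, replicates 2 and 3 alone and leaving out each array; a block setting replicate 1 apart was added after the data were seen.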

Additional observations from a re-analysis of the deposited data

How the results depend on the processing

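The 472 calls over all probe sets became 289 with no filter, 1057 with the replicate block, 1319 with a block setting replicate 1 apart, 2984 in replicates 2 and 3 alone and 3789 with array weights. Leaving out 1 array gave 165 to 1050. Among the listed genes, the replicate block changed no other call than those given with blocked values above. TET8, AT5G05600 and AT3G09010, described without a test, went from adjusted p of 0.061, 0.066 and 0.079 to 0.027, 0.032 and 0.036 with it (limma). Of the 16 alternatives, 6 stayed within 1.5 times the count. The log2 differences of the 5 genes kept their sign in every alternative that tested them, and those of GRX480, SAG101 and AT5G55450 moved by less than the spread between pairs in each. AT1G57630 was at 4.62 with an offset of 2% and 2.26 with an offset of 32%; AT5G52760 was at 4.09 and 2.55, at 3.20 with array weights, and between 3.09 and 3.76 without 1 array. With the offset the spread of AT5G52760 between pairs is very small, so small shifts exceed it. The salicylate synthesis and signalling list had 1 call with array weights and in replicates 2 and 3 alone, BSMT1, and 0 to 1 without 1 array. SAG101 and AT1G57630 were too dim for the filter at the 50th percentile. Signals near or under the offset carry little information on size, which limits AT1G57630 most.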
